A study of Mus musculus with 6 samples.

Results

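The genes described here encode interferon gamma (Ifng) and interferon beta (Ifnb1), the chains of their receptors (Ifngr1, Ifngr2, Ifnar1 and Ifnar2), the CXCR3 ligands Cxcl9, Cxcl10 and Cxcl11, and the feedback inhibitor Socs1. All probe sets that list a member gene and no other gene were taken, which gave 16 probe sets for the 10 genes, out of 45037 probe sets and 18193 genes with such a probe set on the array. Of the 10 genes, 5 had 1 probe set and 5 had several. RNA was measured on 6 arrays, all from mouse macrophages: Trib1 knockout macrophages given lipopolysaccharide (LPS; 2 arrays), wild-type macrophages of the same Trib1 line given LPS (2 arrays), wild-type macrophages given LPS (1 array) and wild-type macrophages given medium (1 array). The first 4 are called the Trib1-line arrays and the last pair the LPS pair, which the series uses to define LPS-inducible genes. The design asks which of those genes differ with Trib1, a Tribbles pseudokinase that helps mark C/EBP factors for degradation. The labels name no strain, sex, age, macrophage source, LPS dose or time.

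LPS, a component of the wall of Gram-negative bacteria, is sensed by Toll-like receptor 4, which induces interferon beta in macrophages. Interferon beta acts through the receptor chains IFNAR1 and IFNAR2, and interferon gamma, made mainly by NK and T cells, acts through IFNGR1 and IFNGR2. Janus kinases and STAT factors carry both signals to the promoters of target genes, among them the 3 chemokines that attract cells bearing CXCR3, and SOCS1 dampens both.

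The promoters of the ligand genes Ifng, Ifnb1, Cxcl9 and Cxcl10 are printed because these genes cover the range of the responses described below, from an LPS ratio of at least 30.2-fold to one close to 1. Each line holds the 250 bases before the transcription start in RefSeq, build GRCm38.p6, 5′ to 3′ on the strand of the gene. Ifng lies at chr10:118440796-118441045 (plus strand), Ifnb1 at chr4:88522795-88523044 (minus), Cxcl9 at chr5:92328080-92328329 (minus) and Cxcl10 at chr5:92348890-92349139 (minus). Capitals mark matches, on either strand, to the 4 motifs searched: an ISRE core (GAAA on each side of any 2 bases), a GAS element (TTCNNNGAA), an NF-kB site (GGGA, any 2 bases, T, any 1 base, CC) and a C/EBP site (TTGCNNAA).
Ifng: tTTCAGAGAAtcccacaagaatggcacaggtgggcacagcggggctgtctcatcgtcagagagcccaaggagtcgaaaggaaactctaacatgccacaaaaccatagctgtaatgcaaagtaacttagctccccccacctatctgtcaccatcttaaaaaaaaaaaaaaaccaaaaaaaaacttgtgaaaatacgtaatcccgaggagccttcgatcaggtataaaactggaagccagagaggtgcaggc
Ifnb1: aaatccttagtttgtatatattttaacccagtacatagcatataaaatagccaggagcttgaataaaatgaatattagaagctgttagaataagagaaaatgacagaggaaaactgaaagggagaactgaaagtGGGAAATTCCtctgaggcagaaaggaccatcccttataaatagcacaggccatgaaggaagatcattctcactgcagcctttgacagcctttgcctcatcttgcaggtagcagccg
Cxcl9: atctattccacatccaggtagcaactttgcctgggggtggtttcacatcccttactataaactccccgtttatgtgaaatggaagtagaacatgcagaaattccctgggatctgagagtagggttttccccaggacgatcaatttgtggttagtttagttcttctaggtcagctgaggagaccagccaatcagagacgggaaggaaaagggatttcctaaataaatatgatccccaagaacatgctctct
Cxcl10: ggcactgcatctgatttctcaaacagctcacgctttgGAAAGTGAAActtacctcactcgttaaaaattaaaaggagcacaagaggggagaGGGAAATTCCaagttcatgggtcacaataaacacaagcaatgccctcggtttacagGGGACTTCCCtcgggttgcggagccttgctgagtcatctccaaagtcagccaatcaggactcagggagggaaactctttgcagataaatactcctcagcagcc

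Of the 10 genes, 9 had a promoter in the RefSeq table, and Cxcl11 had no entry. The ISRE core, the letters that interferon-activated factors bind, occurred in 2 of the 9. Cxcl10 held 1 that began 213 bases before the start, and Socs1 held 2 that overlapped, beginning 83 and 77 bases before it. GAS letters occurred in 2, Ifng (249 bases before the start) and Ifnar2 (214). The NF-kB letters occurred in 3, with 1 match each in Ifnb1 (116) and Ifngr2 (75) and 2 in Cxcl10 (159 and 103). No member held the C/EBP letters, and Cxcl9, Ifngr1 and Ifnar1 held none of the 4. Among all 32851 promoter windows of this length, 2.98% held the ISRE core, 7.02% GAS, 3.33% NF-kB and 9.56% C/EBP. A match describes letters and is not a binding site, and a window without a match says nothing of the factor.

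Each array was rescaled to a common trimmed mean of 234, so values are scaled signals, and values under a floor of 29.9 were treated as unmeasured. On any 1 array between 57.9% and 63.0% of probe sets exceeded the floor, and arrays correlated with each other at Pearson r between 0.922 and 0.971 across probe sets. Of 11 macrophage marker genes, 11 lay above the floor on all 6 arrays. Nothing in the labels says that arrays of 1 genotype are separate animals or cultures, so a p-value here reflects the spread among these arrays alone, and their number limits every estimate. With 2 arrays a side, the smallest p of an exact permutation test is 0.333, so the genotypes were compared by limma over all probe sets. Trib1 itself did not check the labels. Its probe set 1424880_at read 88.1 and 20.9 on the arrays labelled knockout, against 17.9 and 17.5 on the wild types of that line, and 189.3 with LPS against 383.5 in medium in the LPS pair. On 1424881_at it read 32.3 and 38.7 on the arrays labelled knockout and 20.2 and 63.0 on the wild types, a log2 difference of -0.30 (SE 0.42). Where either probe set lies relative to the deleted part is not given, so the arrays are called knockout-labelled throughout. In a bulk sample, fewer cells of a type and less RNA per cell cannot be told apart.

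Ifng had the highest LPS ratio of the members in the LPS pair. Its scaled signal was 106.9 and 90.9 on the knockout-labelled arrays and 126.4 and 412.4 on the wild types of the Trib1 line, and it was 903.9 with LPS against 2.6 in medium in the LPS pair. Medium alone lay under the floor, and the knockout-labelled arrays were the lowest of the 5 LPS arrays. LPS was at least 30.2-fold above medium in the pair, and wild type 1 and 2 of the Trib1 line were at least 4.23-fold and 13.8-fold above that medium array. Between genotypes the log2 difference was -1.21 (SE 0.59, 95% interval -2.67 to 0.25, n = 2 each), with a limma adjusted p of 0.999. The knockout-labelled and wild-type values did not overlap, but the wild-type arrays differed from each other by 3.26-fold, and the difference was -0.36 without wild type 2 and -2.07 without wild type 1. In order of level, medium came first, then knockout-labelled, wild type of the Trib1 line and the LPS array of the pair, and the step between the genotypes (98.9 ± 11.3 and 269 ± 202, SD, n = 2 each) was smaller than the wild-type spread.

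Ifnb1 gave low signals on every array. It read 52.0 and 67.8 on the knockout-labelled arrays, 29.0 and 220.3 on the wild types of that line, and 51.7 with LPS against 54.9 in medium. Wild type 2 was the highest of the 6, wild type 1 lay under the floor, and both knockout-labelled values fell between them. LPS was 0.941-fold of medium in the pair, while wild type 2 was 4.01-fold above that medium array. The log2 difference between genotypes was -0.45 (SE 0.93, 95% interval -2.75 to 1.85; limma adjusted p = 0.999), and without wild type 2 it was 0.99. An interval this wide covers more than a 4-fold difference in one direction and more than a 2-fold difference in the other.

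**Figure D1:**
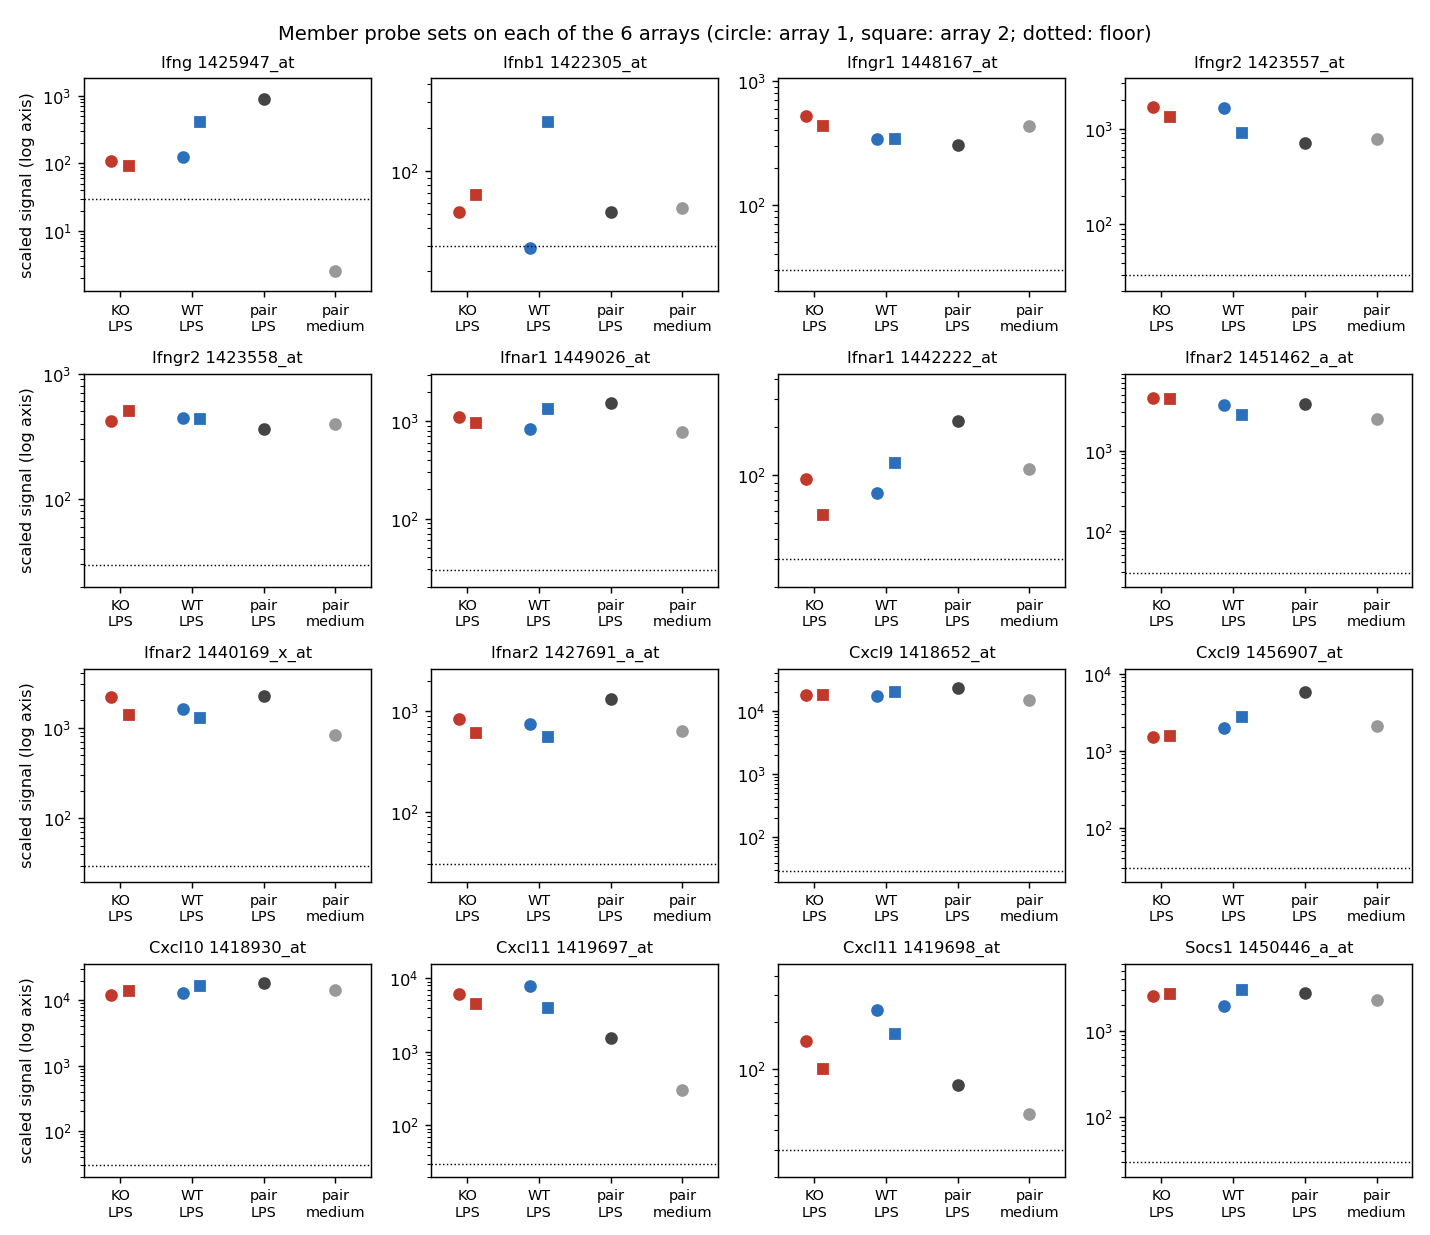
Scaled signal of the 16 member probe sets on a log axis (a separate range for each panel), with knockout-labelled arrays in red, wild-type Trib1-line arrays in blue, and the LPS (dark gray) and medium (light gray) arrays of the LPS pair. Circles are arrays numbered 1 or unnumbered, squares are arrays numbered 2, and the dotted line is the floor of 29.9; Ifng lies under it in medium (2.6), and Ifnb1 lies just under it on wild type 1 (29.0).

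The ligand-binding chain of the interferon gamma receptor, Ifngr1, read 526.2 and 434.6 on the knockout-labelled arrays, 343.2 and 343.8 on the wild types of that line, and 303.8 with LPS against 434.8 in medium. Both knockout-labelled values were above both wild-type values, and the lower of them was level with medium. The 3 wild-type LPS arrays all lay below medium, by -0.52 on the log2 scale in the pair and by -0.34 for each of wild type 1 and 2. Between genotypes the log2 difference was 0.48 (SE 0.22, 95% interval -0.07 to 1.03; limma adjusted p = 0.999).

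Ifngr2, the signal-transducing chain, had 2 probe sets. On 1423557_at the knockout-labelled arrays read 1664.8 and 1326.5, the wild-type Trib1-line arrays 1622.0 and 895.8, and the LPS array 709.4 against 781.1 in medium. The genotypes overlapped, with a log2 difference of 0.30 (SE 0.32, 95% interval -0.49 to 1.09; limma adjusted p = 0.999). On 1423558_at the values were 422.0 and 501.4 on knockout-labelled arrays, 443.8 and 437.3 on wild-type ones, and 359.6 with LPS against 394.4 in medium. That probe set varied little, with a log2 difference of 0.06 between genotypes (95% interval -0.47 to 0.59) and of -0.13 between LPS and medium.

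Among the type I interferon receptor chains, Ifnar1 read 1109.2 and 952.8 on knockout-labelled arrays and 836.2 and 1340.6 on wild-type Trib1-line arrays on probe set 1449026_at, and 1550.8 with LPS against 769.4 in medium. The knockout-labelled values lay between the wild-type ones, and the log2 difference was -0.04 (SE 0.27, 95% interval -0.72 to 0.63; limma adjusted p = 0.999). LPS was 2.02-fold over medium in the pair, but 1.09-fold and 1.74-fold for wild type 1 and 2 over the same medium array. The dimmer probe set 1442222_at read 94.6 and 56.4 on knockout-labelled arrays, 76.9 and 119.1 on wild-type ones, and 217.8 with LPS against 109.9 in medium. It gave a similar ratio in the pair (1.98-fold), while wild type 1 lay below medium (0.700-fold) and wild type 2 close to it (1.08-fold).

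Ifnar2, which exists as transmembrane and soluble forms in the mouse, had 3 probe sets, all higher with LPS than in medium in the pair. The brightest, 1451462_a_at, read 4574.4 and 4435.7 on knockout-labelled arrays, 3754.8 and 2807.6 on wild-type Trib1-line arrays, and 3785.7 with LPS against 2488.4 in medium. Both knockout-labelled values exceeded every other array, and the log2 difference was 0.47 (SE 0.20, 95% interval -0.02 to 0.96; limma adjusted p = 0.999). On 1440169_x_at, whose suffix marks probes that may also bind other transcripts, the values were 2155.3 and 1369.8 on knockout-labelled arrays, 1623.9 and 1279.4 on wild-type ones, and 2235.5 with LPS against 828.5 in medium. On 1427691_a_at they were 837.6 and 604.8 on knockout-labelled arrays, 754.5 and 557.5 on wild-type ones, and 1332.4 with LPS against 642.5 in medium. The genotypes overlapped on both, with log2 differences of 0.25 and 0.13. The LPS ratios in the pair were 1.52-fold, 2.70-fold and 2.07-fold in that order of probe sets, and for 1427691_a_at wild type 2 of the Trib1 line lay below medium (0.868-fold). In the RefSeq annotation Ifnar2, Il10rb, Ifnar1 and Ifngr2 follow each other on chromosome 16, and Ifngr1 lies on chromosome 10.

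Cxcl9 and Cxcl10, chemokines that interferon gamma and type I interferons induce, were bright on all 6 arrays, medium included. Cxcl9 on 1418652_at read 17558.8 and 17516.9 on knockout-labelled arrays, 17409.8 and 20213.6 on wild-type Trib1-line arrays, and 23275.9 with LPS against 15030.9 in medium. Medium was the lowest and the LPS array of the pair the highest, 1.55-fold apart, and the genotypes overlapped. The log2 difference between genotypes was -0.10 (SE 0.17, 95% interval -0.52 to 0.33; limma adjusted p = 0.999). These signals were between 68.4% and 82.4% of the highest signal on their array, and whether such bright spots respond in proportion to RNA was not tested.

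A second Cxcl9 probe set, 1456907_at, was dimmer and spread further. It read 1494.1 and 1572.4 on the knockout-labelled arrays, 1948.5 and 2771.7 on the wild types of that line, and 5800.9 with LPS against 2093.9 in medium. The knockout-labelled arrays were the 2 lowest of the 6, below medium, and the LPS array of the pair stood 2.77-fold over medium. Between genotypes the log2 difference was -0.60 (SE 0.22, 95% interval -1.15 to -0.06), with an unadjusted limma p of 0.036 and an adjusted p of 0.965. It was the single member probe set of 16 with an unadjusted p under 0.05, where 4.99% of all probe sets tested had one (2.28% higher and 2.71% lower, as here).

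Cxcl10 read 12215.1 and 13771.1 on knockout-labelled arrays, 12683.5 and 16595.9 on wild-type Trib1-line arrays, and 18060.5 with LPS against 14340.1 in medium. Medium lay above 3 of the 4 Trib1-line arrays, and LPS was 1.26-fold over medium in the pair. Its log2 difference between genotypes was -0.16 (SE 0.20, 95% interval -0.66 to 0.34; limma adjusted p = 0.999). Signals reached between 50.1% and 65.3% of the highest on their array.

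Cxcl11, which RefSeq annotates in this build as a transcribed pseudogene next to Cxcl10 on chromosome 5, was higher on all 5 LPS arrays than in medium. Probe set 1419697_at read 6209.5 and 4456.2 on knockout-labelled arrays, 7904.9 and 3994.7 on wild-type Trib1-line arrays, and 1564.8 with LPS against 302.0 in medium. LPS was 5.18-fold over medium in the pair, and every Trib1-line array exceeded the LPS array of the pair, with wild type 1 and 2 at 26.2-fold and 13.2-fold over medium. The genotypes overlapped, and their log2 difference was -0.10 (SE 0.36, 95% interval -0.99 to 0.80; limma adjusted p = 0.999). The dimmer 1419698_at read 152.1 and 99.2 on knockout-labelled arrays, 239.6 and 167.8 on wild-type ones, and 78.1 with LPS against 50.7 in medium. On it both knockout-labelled values lay below both wild-type values (log2 difference -0.71, SE 0.37, 95% interval -1.63 to 0.22; limma adjusted p = 0.999), and wild type 1 and 2 were 4.73-fold and 3.31-fold over medium. Both probe sets ran in the same order of groups apart from the genotypes: medium lowest, then the LPS array of the pair, then the Trib1-line arrays.

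Socs1, whose protein binds Janus kinases and interferon receptors to end the signal, read 2533.5 and 2684.7 on knockout-labelled arrays, 1932.1 and 3000.7 on wild-type Trib1-line arrays, and 2736.9 with LPS against 2275.3 in medium. The knockout-labelled values lay between the wild-type ones, and wild type 1 was below medium. LPS was 1.20-fold over medium, and the log2 difference between genotypes was 0.12 (SE 0.25, 95% interval -0.49 to 0.73; limma adjusted p = 0.999).

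For LPS against medium there is 1 array each, so no test or error applies and a ratio of at least 4 was the rule. By it 2 of the 16 member probe sets were higher with LPS, Ifng and 1419697_at of Cxcl11, against 0.986% of the 29115 probe sets that exceeded the floor on either array of the pair. None was at least 4-fold lower, where the share over all probe sets was 0.598%. Both were also at least 4-fold over medium on wild type 1 and 2 of the Trib1 line, as were 0.44% of all probe sets. At 2-fold, 6 of the 16 were higher and 0 lower, beside 5.02% and 6.29% of all. The members' median log2 ratio was 0.63 and that of all probe sets -0.09. The arrays of the pair were deposited on another scale than those of the Trib1 line. They also differ in a sex-linked transcript, since Xist read 980.5 with LPS and 1615.5 in medium there and at most 5.6 on the Trib1-line arrays, so ratios across the 2 sets of arrays compare more than treatment.

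**Figure D2:**
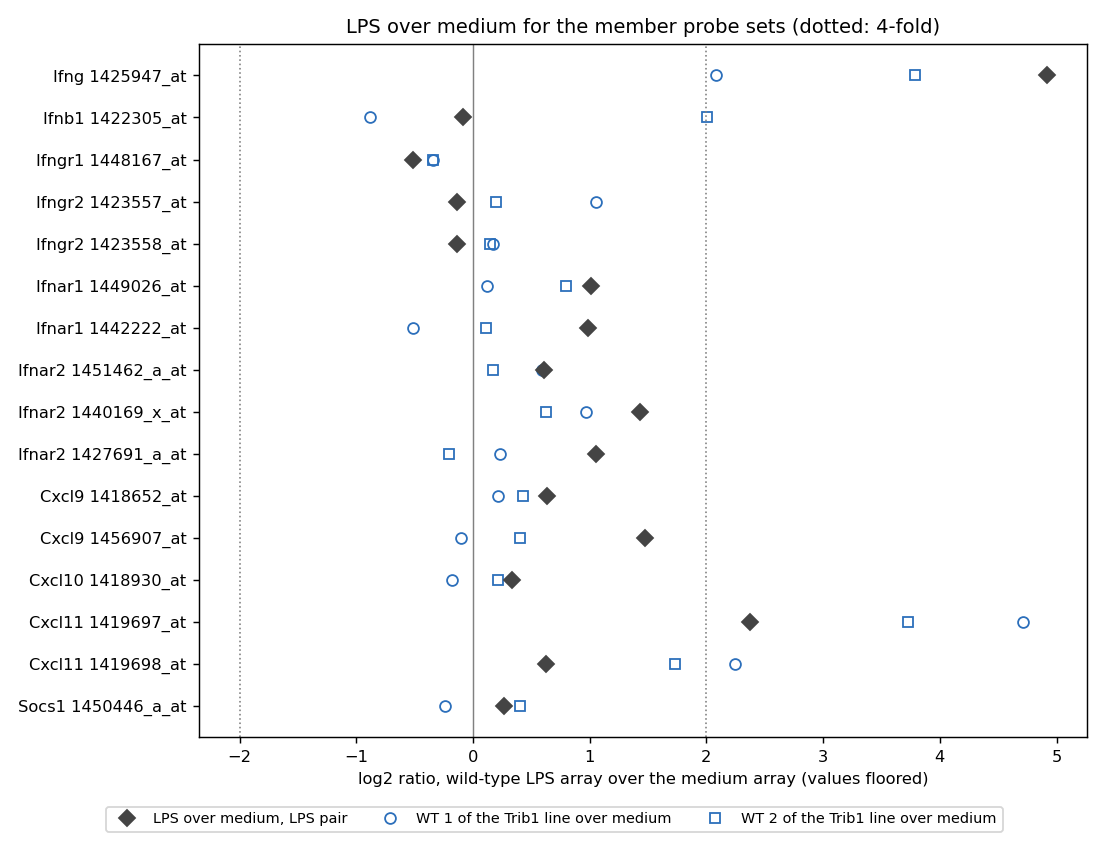
Log2 ratio of each wild-type LPS array over the medium array for the 16 member probe sets, with values under the floor set to it; diamonds are the LPS array of the LPS pair, open circles and squares wild type 1 and 2 of the Trib1 line, and dotted lines 4-fold. Ifng and Cxcl11 1419697_at lie past 4-fold on all 3, Ifnb1 does on wild type 2 (4.01-fold) and Cxcl11 1419698_at on wild type 1 (4.73-fold).

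Between genotypes all 16 member probe sets passed the filter on low values, and limma called 0 of them at an adjusted p under 0.05, as it did 0.0% of all 29078 probe sets in either direction. The members' adjusted p-values lay between 0.965 and 0.999. In 2 of the 16 (Ifngr1 and 1451462_a_at of Ifnar2) both knockout-labelled arrays were above both wild-type arrays, beside 15.4% of all probe sets. In 3 (Ifng, 1456907_at of Cxcl9 and 1419698_at of Cxcl11) both were below, beside 16.3% of all, and 11 overlapped. In no member did the knockout-labelled pair clear the wild-type pair by 2-fold or more in either direction, a rule met by 0.389% and 0.33% of all probe sets. The median log2 difference of the members was -0.07, with 9 below 0 and 7 above, and that of all probe sets was -0.01. Over all probe sets the 95% interval reached 0.84 to each side of the estimate at the median, before adjustment. In 10 of the 16 the sign of the difference turned when 1 array was left out, and it held for Ifng, Ifngr1, 1442222_at of Ifnar1, 1451462_a_at of Ifnar2, 1456907_at of Cxcl9 and 1419698_at of Cxcl11.

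**Figure D3:**
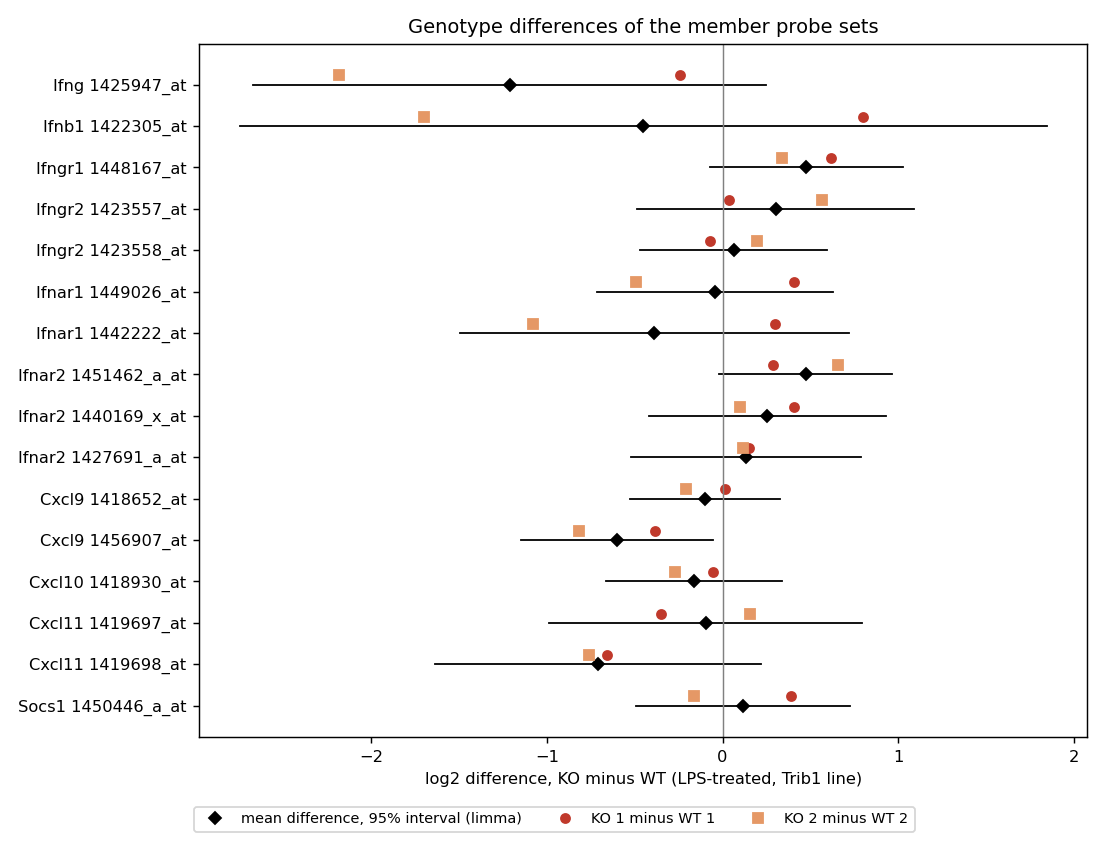
Log2 difference, knockout-labelled minus wild type, of the 16 member probe sets: diamonds and lines are the limma estimate with its 95% interval (n = 2 each), circles the difference between the arrays numbered 1 and squares between those numbered 2. All intervals except that of Cxcl9 1456907_at (-1.15 to -0.06) include 0, and Ifng ranges from -0.24 to -2.18 between the numbers.

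By arrays of the same number, Ifng was -0.24 for knockout 1 minus wild type 1 and -2.18 for knockout 2 minus wild type 2 on the log2 scale. Ifnb1 had opposite signs, 0.80 and -1.70. Ifngr1 (0.62 and 0.34), 1423557_at of Ifngr2 (0.04 and 0.57), the 3 probe sets of Ifnar2 (0.28 and 0.66, 0.41 and 0.10, 0.15 and 0.12), 1456907_at of Cxcl9 (-0.38 and -0.82), Cxcl10 (-0.05 and -0.27) and 1419698_at of Cxcl11 (-0.66 and -0.76) kept their sign across both. Whether the numbers pair arrays is not said in the labels.

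For likeness over the 6 arrays, the log2 values of the brightest probe set of 14420 genes were compared with those of Ifng, Cxcl9 and Cxcl10. The points share arrays and the medium array, so r and rho are descriptions. The gene most like Ifng was Cxcl9 by its probe set 1418652_at (Pearson r = 0.991, Spearman rho = 0.829). Zfp28 (0.989, rho = 1) and Crebl2 (0.986, rho = 1) came next. Without the medium and LPS arrays of the pair r was 0.973 for Cxcl9, 0.972 for Zfp28 and 0.9998 for Crebl2, so Cxcl9 was not the highest of the 3 there. The dimmer Cxcl9 probe set 1456907_at was not compared. On it medium lay above both knockout-labelled arrays and wild type 1, while Ifng was lowest in medium. The genes most like Cxcl9 were Ifng, Slfn2 (r = 0.975) and Ier5 (0.974). Without the medium and LPS arrays of the pair, Slfn2 was at 0.894 and Ier5 at 0.993. Those most like Cxcl10 were Pmepa1 (0.992), Ccl12 (0.983) and Jchain (0.982). Without the 2 arrays farthest from the median of Cxcl10, wild type 2 and the LPS array of the pair, these 3 were 0.967, 0.879 and 0.903.

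Among the cytokines that drive interferon gamma production, LPS was accompanied by high Il12b and Il12a, the subunits of interleukin 12. Il12b read 18743 with LPS against 109.8 in medium and Il12a 1637.6 against 41.2. Il15, a growth factor of NK cells, read 2183.8 against 455.5. Of 12 genes with a probe set (13 listed), 11 exceeded the floor on either array of the pair. Of the 11, these 3 were at least 4-fold higher and 0 lower, beside 1.21% and 0.672% of all genes so filtered, at 1 probe set per gene. The median log2 ratio of the 11 was 0.84 against -0.11 over all genes. Between genotypes Il12b read 8829 and 9118 on knockout-labelled arrays and 15341 and 14355 on wild-type ones (log2 difference -0.73, SE 0.16, limma adjusted p = 0.872). Il23a, the partner subunit in interleukin 23, read 433.9 and 272.1 on knockout-labelled arrays and 73.7 and 129.4 on wild-type ones (1.81, SE 0.41, limma adjusted p = 0.874). Il12rb1, the receptor chain shared by both cytokines, had a difference of -0.90 (SE 0.47). No gene of the 11 tested was called by limma, and 2 had an unadjusted p under 0.05 (Il12b and Il23a), beside 5.53% of all genes. Below 0 lay 7 of the 11, beside 48.9% of all genes, and the median difference was -0.10. The median was 0.14 without knockout 1 (5 below 0), -0.33 without knockout 2 or wild type 1, and -0.14 without wild type 2.

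For other interferon genes and receptor chains, 11 of 22 listed genes had a probe set with 1 gene, and Ifna4, Ifna5 and Ifna9 were under the floor on all 6 arrays. None was at least 4-fold higher or lower with LPS, beside 1.21% and 0.672% of all genes. The median log2 ratio was 0.02 over the 6 genes above the floor on either array of the pair. Of 6 tested, limma called 0 and 1 had an unadjusted p under 0.05, beside 5.53% of all genes. That gene, Ifna2, encodes an interferon alpha (limma adjusted p = 0.940). It read 12.5 and 10.7 on knockout-labelled arrays, both under the floor, and 55.8 and 104.6 on wild-type ones. Ifna2 passed the filter on the wild-type arrays alone, and both knockout-labelled values were set to the floor, which removed their spread. Its p is therefore in part an outcome of the filter and the floor. Ifna1 (-1.06) and Ifnlr1 (0.25) followed. In the Toll-like receptor 4 branch that induces interferon beta, 0 of 14 genes with a probe set (17 listed) met the 4-fold rule in either direction. Over all genes 1.21% did so upward and 0.672% downward. The median log2 ratio of the 14 was 0.32. Cd14, a co-receptor for LPS, had the smallest p there, at 23075 and 19999 on knockout-labelled arrays and 13871 and 14874 on wild-type ones (log2 difference 0.58, SE 0.17, limma adjusted p = 0.950). Irf7 (-0.84) and Irf1 (-0.16), which encode interferon regulatory factors, followed. Of the 14, 0 were called and 1 (Cd14) had an unadjusted p under 0.05, beside 5.53% of all genes. The median was 0.04 (-0.01 without wild type 2).

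Signal carriers and inhibitors showed a similar picture. Of 8 Janus kinase, STAT and Irf9 genes with a probe set (9 listed), 0 were 4-fold higher or lower, beside 1.21% and 0.672% of all genes. Their median log2 ratio was 0.36. Stat2 read 1615.7 and 2035.8 on knockout-labelled arrays and 2657.8 and 2594.4 on wild-type ones. Its log2 difference was -0.53 (SE 0.19, limma adjusted p = 0.957), and Tyk2 had -0.40 and Stat4 -0.28. Of the 8, 0 were called and 1 (Stat2) had an unadjusted p under 0.05, beside 5.53% of all genes. The list's median difference was -0.03 (-0.24 without knockout 1). Of 14 feedback inhibitors, Usp18 (2.59) and Cish (2.48) were past 4-fold by their log2 ratios and 0 were lower, beside 1.21% and 0.672% of all genes. The median was 0.11 against -0.11 over all genes. On each of wild type 1 and 2 of the Trib1 line 1 of the 14 was at least 4-fold over medium, beside 300 and 447 of all 45037 probe sets. Cish, at 297.1 and 360.7, was below the 368.3 of medium on both. Ptpn6, a phosphatase of cytokine signalling, read 2935 and 4109 on knockout-labelled arrays and 5380 and 5966 on wild-type ones (-0.71, SE 0.21, limma adjusted p = 0.950). Ptpn11 (-0.28) and Trim24 (-0.45) followed. Of the 14, 0 were called and 1 (Ptpn6) had an unadjusted p under 0.05, beside 5.53% of all genes. The median was -0.05 (0.08 without knockout 2).

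Type I interferon target genes, antiviral genes that respond to the receptor of interferon beta, were at least 4-fold higher with LPS than in medium for 8 of 21 with a probe set (24 listed), and 0 were lower, beside 1.21% and 0.672% of all genes. Mx2 was at least 10.5-fold higher, and Mx1 (3.03), Rsad2 (3.01) and Cmpk2 (2.67) followed by log2 ratio. On wild type 1 and 2 of the Trib1 line, 5 and 10 of the 21 were at least 4-fold over medium, beside 300 and 447 of all 45037 probe sets. The list's median log2 ratio was 0.90. Between genotypes, 0 of 21 were called by limma and 0 had an unadjusted p under 0.05, beside 5.53% of all genes. All 21 had a log2 difference below 0, where 48.9% of all genes did, with a median of -0.65, and all 21 were lower in knockout 1 than wild type 1 and in knockout 2 than wild type 2, beside 27.0% of all genes. In 2 both knockout-labelled arrays were below both wild-type arrays and in 0 above, beside 15.7% and 16.9% of all genes. The smallest p were those of Eif2ak2 (-0.54, SE 0.24), Tor3a (-0.62, SE 0.28) and Ifit2 (-1.49, SE 0.78). Within the arrays of 1 number the medians were -0.90 (knockout 1 minus wild type 1) and -0.39 (knockout 2 minus wild type 2). Arrays of 1 genotype also differed, with a median of 1.43 for knockout 2 minus knockout 1 and 0.84 for wild type 2 minus wild type 1. Knockout 2 against both wild types, that is without knockout 1, gave a median of 0.02 with 10 of 21 below 0. Without wild type 2 the median was -0.20 (16 of 21 below 0), without wild type 1 it was -1.08 and without knockout 2 it was -1.37. Relative to each gene's mean over the 6 arrays, the list's median was -0.82 on knockout 1, 0.47 on knockout 2, close to 0 on wild type 1, 0.92 on wild type 2, 0.47 with LPS and -0.75 in medium.

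**Figure D4:**
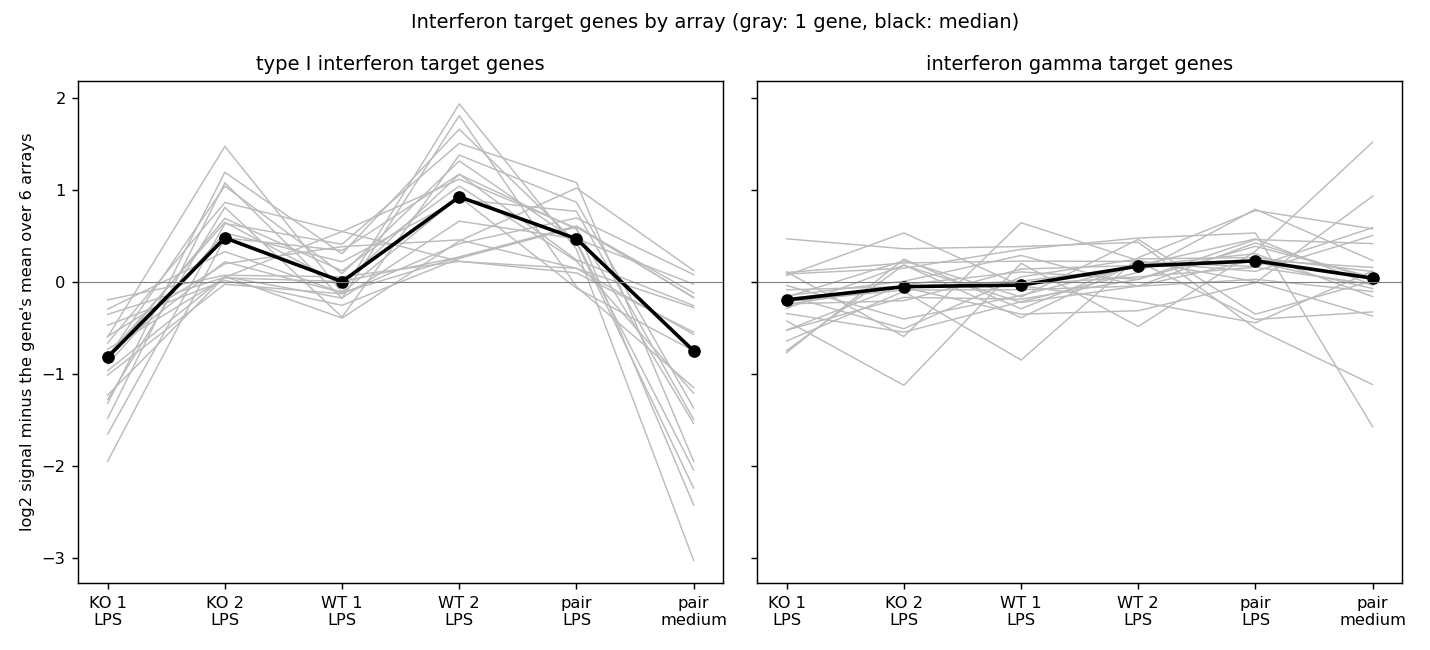
Log2 signal of each target gene minus its mean over the 6 arrays (gray lines, 1 per gene; black, the median of the list), for 21 type I interferon target genes and 22 interferon gamma target genes. For the type I targets knockout 1 (-0.82) lay close to medium (-0.75) and wild type 2 was the highest (0.92), while the medians of the interferon gamma targets lay between -0.20 and 0.23.

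Interferon gamma target genes were close to their medium level. Their median log2 ratio was 0.17 over 22 genes with a probe set (25 listed), against -0.11 over all genes. The 1 past 4-fold, beside 1.21% of all genes, was the costimulatory receptor Cd40, at 22488 with LPS against 5224 in medium. Between genotypes, 0 of 22 were called by limma and 0 had an unadjusted p under 0.05, beside 5.53% of all genes. Below 0 were 18 of the 22, beside 48.9% of all genes, with a median log2 difference of -0.21 against 0.01 over all genes. In 10 both knockout-labelled arrays were below both wild-type arrays and in 2 above, beside 15.7% and 16.9% of all genes. Leaving out 1 array at a time, between 14 and 20 of the 22 lay below 0 and the median was -0.34 without wild type 1, -0.30 without knockout 2, -0.08 without knockout 1 and -0.07 without wild type 2. The smallest p were those of the class II genes H2-Aa (-0.48, SE 0.20) and H2-Ab1 (-0.68, SE 0.29) and of the adhesion gene Icam1 (-0.38, SE 0.16). H2-Aa read 9842 and 7681 on knockout-labelled arrays, 11348 and 12996 on wild-type ones and 13131 with LPS against 11815 in medium.

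**Figure D5:**
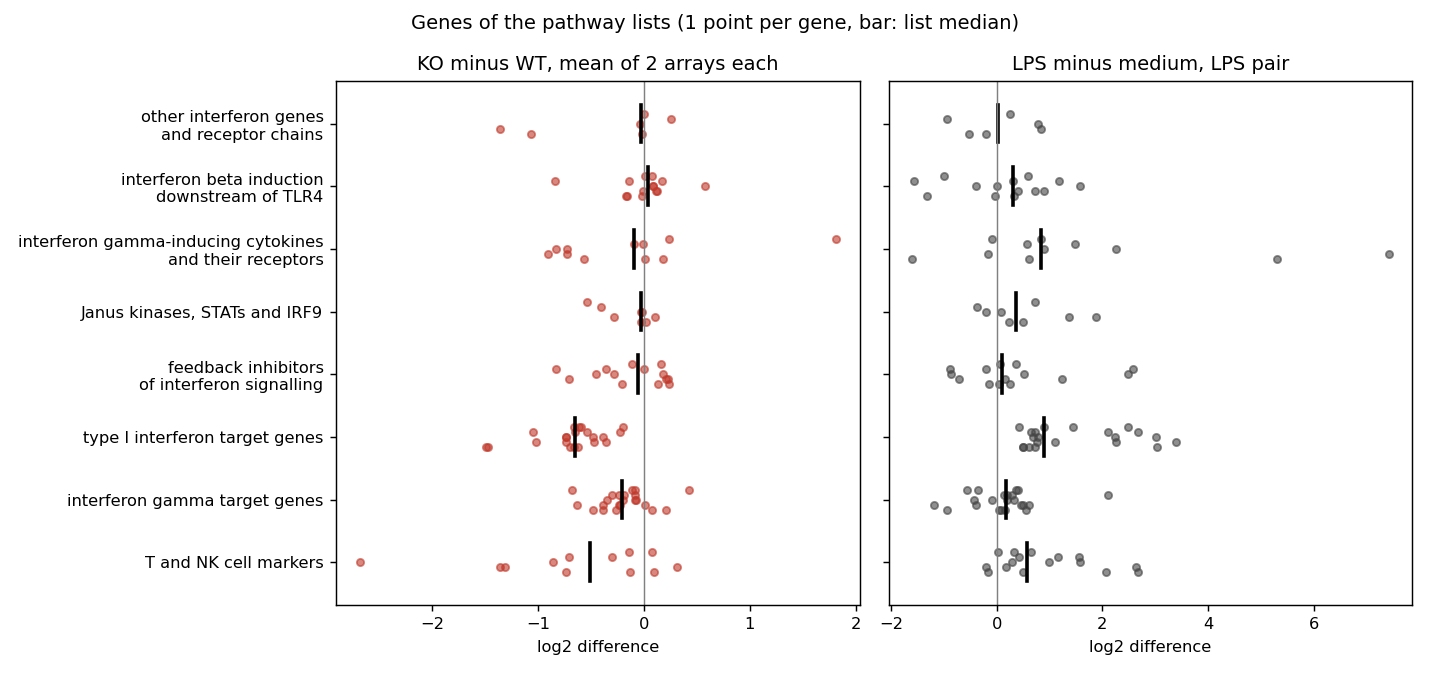
Log2 differences of the genes of 7 pathway lists and of the T and NK cell markers, 1 point per gene with the list's median as a bar: on the left knockout-labelled minus wild type, on the right LPS minus medium in the LPS pair for genes that exceeded the floor on at least 1 of its arrays. On the left, all 21 type I interferon target genes lie below 0 (median -0.65), and 10 of 21 do when knockout 1 is left out.

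Summed markers of the cells that make interferon gamma differed in the same direction as Ifng, between genotypes and between LPS and medium. The summed scaled signal of 18 T and NK cell markers was 884 and 1024 on knockout-labelled arrays, 2538 and 2695 on wild-type Trib1-line arrays, and 2372 with LPS against 1355 in medium. Of the 16 above the floor on either array of the pair, 3 were at least 4-fold higher with LPS and 0 lower. Over all genes the shares were 1.21% and 0.672%. The numbers of these markers above the floor were 10 and 10 on knockout-labelled arrays, 13 and 12 on wild-type ones and 16 with LPS against 10 in medium, and the defining markers Cd4 and Cd8b1 were under it on all 6. Of 12 tested between genotypes, 0 were called by limma, 4 had an unadjusted p under 0.05, all lower, beside 5.53% of all genes in both directions, and 9 lay below 0, beside 48.9%, with a median of -0.50 (-0.85 without wild type 1). With 10 markers above the floor on each knockout-labelled array, some of the 12 tested were set to the floor there, which lessens their spread. For such markers the p is in part an outcome of the filter and the floor, as for Ifna2. Across single arrays the marker sums ran in another order than Ifng. Medium lay above both knockout-labelled arrays in the sums and below them in Ifng. The LPS array lay below both wild types of the Trib1 line in the sums and above them in Ifng. The part of these markers in the Ifng values was not tested. Summed neutrophil markers ran the other way, 21206 and 10604 on knockout-labelled arrays against 3749 and 3226 on wild-type ones, and summed B cell markers were 509 and 879 against 903 and 1785, with 8542 with LPS against 3092 in medium in the pair. Mast cell and eosinophil markers had 6 of 6 tested below 0 between genotypes, beside 48.9% of all genes (median log2 difference -1.30). Of these 10 markers, 4 and 5 exceeded the floor on knockout-labelled arrays and 4 and 9 on wild-type ones, so some tested values were set to it. Dendritic cell markers had a median of -0.43 and mesothelial and stromal markers one of 0.80. The part of all these cell markers in the member values was not tested either.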

How the data were processed

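RNA of 6 samples was measured on one-colour Affymetrix arrays. The deposited values are linear probe set intensities made by the authors with MAS5, per the submitters' processing notes, with the version and scaling target not given in the sources used here. Of 45101 probe sets, 64 controls were left out. Genes come from the platform annotation, where 34945 probe sets list 1 gene, 932 several and 9160 none, and only the first were named.

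Each array was rescaled to the same mean without the outer 2%, values under the pooled 40th percentile were set to it, and log2 was taken. The genotype test was limma 3.58.1 (R 4.3.3; eBayes with trend, two-sided, Benjamini-Hochberg) over all 29078 probe sets that exceeded the floor on 2 or more of the 4 arrays. LPS against medium was a ratio with a 4-fold rule, given as a lower bound where medium was under the floor. The probe set with the highest mean stood for a listed gene. From each list up to 4 genes past 4-fold with the largest ratio, and up to 3 with the smallest genotype p, were named. The steps were tested on simulated data. The members and lists were chosen with earlier results of these data known.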

Additional observations from a re-analysis of the deposited data

How the results depend on the processing

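The 16 members' genotype differences gave 217 values under 14 alternatives. None was called, with a lowest adjusted p of 0.178 (limma with the replicate number as a block, 1456907_at of Cxcl9), and 201 kept their direction. The 16 that turned fell on 10 probe sets. With the values as deposited, Ifnar1 1449026_at was 0.0250. With the LPS array of the pair added as a wild type, Ifnar2 1427691_a_at was -0.21 and Cxcl11 1419697_at 0.52. Leaving out 1 array at a time gave ranges of -1.89 to 0.99 for Ifnb1, -0.13 to 0.73 and -0.0618 to 0.19 for Ifngr2, -0.38 to 0.30 for Ifnar1 1449026_at, -0.0735 to 0.58 and -0.10 to 0.37 for Ifnar2 1440169_x_at and 1427691_a_at, -0.20 to 0.0106 for Cxcl9 1418652_at, -0.36 to 0.0322 for Cxcl10, -0.59 to 0.40 for Cxcl11 1419697_at and -0.20 to 0.43 for Socs1. Over all probe sets limma called 0 higher and 0 lower, 85 and 31 with the replicate block, and between 5 and 36 higher and 0 and 32 lower without 1 array. With the block the members had 0 calls. The numbers are not said to pair arrays. Deviations of knockout 1 correlated at 0.347 with those of wild type 1 and at -0.347 with those of wild type 2 over 29078 probe sets. With 2 arrays a group these values mirror each other, so they cannot decide whether the numbers pair arrays.

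For LPS, 287 probe sets were higher and 174 lower. The counts were 790 and 815 with the values as deposited, 501 and 465 with the floor at the 25th percentile, 1461 and 1832 at 2-fold (6 members higher) and 82 and 17 at 8-fold (1 member). Lower were 85 with the floor at the 60th percentile and 370 with wild type 1 in place of the LPS array, and 447 were higher and 489 lower with wild type 2 in its place. Limma of all 3 wild-type LPS arrays against medium, whose single array is taken to vary as they do, called 45 and 3 and 0 members (adjusted p between 0.188 and 0.971). By the 2-fold rule between genotypes 113 were higher and 96 lower, with 38 lower as deposited, 288 and 303 with the 25th percentile floor and 68 and 35 with the 60th. The causes were not tested. The list medians and counts under these alternatives were added after seeing the data, and the median of the type I interferon targets was 0.02 without knockout 1 and -0.65 with all 4. Signal over background limits Ifng in medium and Ifnb1 on every array except wild type 2, where it read 220.3.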
